A study of Mus musculus with 6 samples.

Results

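The platelet-derived growth factor (PDGF) genes described here are the receptors Pdgfra and Pdgfrb and the ligands Pdgfa, Pdgfb, Pdgfc and Pdgfd. They were chosen by gene symbol, and all 6 were found among the 37991 gene identifiers of the count files. The counts came from RNA sequencing of the mesenchyme that wraps the Müllerian duct. This embryonic duct gives rise to oviduct, uterus and upper vagina in females and is lost in males under anti-Müllerian hormone (AMH) from the testis. There were 3 male and 3 female libraries, all from mouse embryos at embryonic day 14.5 on a mixed C57BL/6J and 129/SvEv background. All embryos of either sex carried Amhr2Cre/+ and R26R YFP/+, so Cre was made from the locus of the AMH receptor gene and switched on a YFP reporter. Cells were sorted for YFP, which stays on in descendants of a cell that once had Cre activity, and each library pooled cells from 2 to 7 embryos. By its title the study concerns osterix, a transcription factor encoded by Sp7, as an effector of AMH signalling, and the design compares male with female mesenchyme.

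PDGF ligands are secreted dimers that bring together receptor tyrosine kinases on the target cell. PDGF-A and PDGF-B are cut to their active form inside the secreting cell, whereas PDGF-C and PDGF-D leave the cell with an inhibitory CUB domain that extracellular proteases remove. The alpha receptor binds the A, B and C chains and is a general marker of embryonic mesenchyme. The beta receptor binds the B and D chains and is best known from pericytes and vascular smooth muscle, and it is also found in many mesenchymal cells.

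Libraries held 22834945 to 24271103 counts in genes in males and 22511872 to 24749859 in females. The summed level of 4 Y-linked genes lay between 51.95 and 395.5 counts scaled to library size (CPM) in male libraries and reached at most 0.441 CPM in a female library. All 8 markers of duct mesenchyme were present, the collagen gene Col3a1 at 2145 ± 389 CPM in male and 2197 ± 499.9 CPM in female libraries and Amhr2 at 339 ± 158 and 530.3 ± 234 CPM in male and female libraries (SD, n = 3 each). None of the 8 passed, but with the offset for GC content and length Amhr2 did at −0.97 and Hoxa11 at −1.28 (edgeR adjusted p = 0.0256 and 0.0212). The fit with the offset called 2.92% of all genes as lower in male. Counts outside annotated genes made up 18.2%, 5.45% and 5.50% of uniquely placed counts in male replicates 1 to 3 and 17.5%, 3.53% and 8.65% in female replicates 1 to 3. The replicate 1 libraries of both sexes thus stood apart from the rest in this share. Without them the log2 fold change of Pdgfra was 0.77, against 1.07 with all libraries.

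The sequences upstream of Pdgfra and Pdgfc are shown because in these 2 members all male values lay on the same side of all female values. Each is the 250 bases before the RefSeq start of the gene, 5′ to 3′ on the plus strand of build GRCm38.p6, at chr5:75152001-75152250 for Pdgfra and chr3:81036166-81036415 for Pdgfc. The submitters' processing notes name another build, mm9, so these positions do not carry over to the counts. Capitals mark CAGAC or its reverse complement GTCTG, the letters of a box that transcription factors of the SMAD family can bind.
Pdgfra: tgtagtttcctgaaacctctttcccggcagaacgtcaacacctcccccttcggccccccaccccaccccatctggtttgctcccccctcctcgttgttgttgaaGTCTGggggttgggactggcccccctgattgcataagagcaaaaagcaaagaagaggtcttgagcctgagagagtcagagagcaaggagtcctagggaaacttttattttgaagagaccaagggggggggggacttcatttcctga
Pdgfc: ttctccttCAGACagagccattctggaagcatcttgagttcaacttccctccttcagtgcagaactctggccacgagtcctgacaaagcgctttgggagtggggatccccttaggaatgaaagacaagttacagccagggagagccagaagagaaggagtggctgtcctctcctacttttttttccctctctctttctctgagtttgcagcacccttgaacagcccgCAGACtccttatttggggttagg

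The window of Pdgfra held 1 such match and the Pdgfc window 2, and 42.2% of all 32851 windows of this length in the RefSeq table held at least 1. The letters GGGCGG or CCGCCC, a GC box of the kind bound by SP-family factors, were in neither window and in 32.7% of all windows. No match overlapped another. These letters describe the sequence only. The table held windows for 4 of the 6 members, and the 2 windows of Pdgfa held 1 and 2 GC boxes. The window of Pdgfd, a member in which the sexes overlapped, also held 2 matches to CAGAC or GTCTG, and those of Pdgfa held none.

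The receptors had opposite signs between the sexes, with Pdgfra higher and Pdgfrb lower on average in male mesenchyme, and the ligand Pdgfc was lower in every male library than in any female library. Of the 6 members, none passed the test over all genes (edgeR quasi-likelihood test, Benjamini-Hochberg adjusted p under 0.05), against a background of 1.23% of the 15227 genes tested. By direction, 128 genes (0.841%) were higher and 59 (0.387%) lower in male. Once an offset for GC content and length was added, 460 were higher and 445 lower, 5.94% in all, and 1 of the 6 members passed. All 6 members passed the filter on low counts. In 2 of them, Pdgfra (male above female) and Pdgfc (male below female), the sexes did not overlap. Over all genes tested this was so for 13.7%, made up of 6.47% with male above and 7.27% with male below. The median log2 fold change, male over female, was −0.42 for the 6 members and −0.01 for all genes tested, and 2 members had a positive and 4 a negative value. With an unadjusted p under 0.05 there was 1 member, Pdgfc, against 9.18% of all genes. No member passed by DESeq2 or limma-voom either, which called 5.06% and 1.58% of all genes. With the replicate number added to the edgeR fit as a block 5 of the 6 passed, where 27.3% of all genes were called. The replicate numbers paired the sexes only in part, as given below. In these bulk samples fewer cells of a type and less RNA per cell cannot be told apart.

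**Figure D1:**
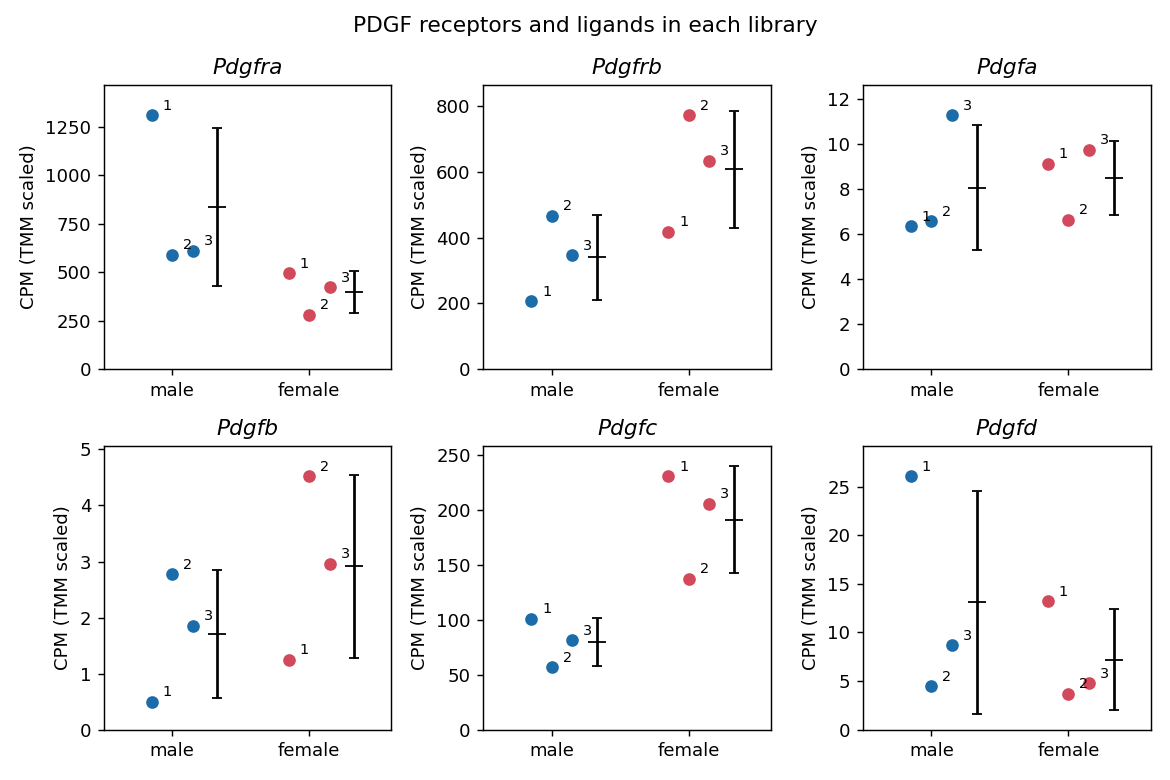
TMM-scaled CPM of the 6 members in each library, on axes that start at 0. Points are single libraries labelled by replicate number, male left of female, and black bars give the mean ± SD of 3 libraries. The male points lie above all female points for Pdgfra and below them for Pdgfc, and overlap with them for the other 4.

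Pdgfra (ENSMUSG00000029231), the alpha receptor, stood at 1309.7, 589.8 and 609.98 CPM in male replicates 1 to 3, against 494.4, 278.9 and 420.6 CPM in female replicates 1 to 3. The lowest male library was above the highest female library, and male replicate 1 was more than the sum of the other male libraries. The means were 836.5 ± 409.96 CPM in male and 398 ± 109 CPM in female libraries (SD, n = 3 each), with a log2 fold change of 1.07 (SE 0.46, 95% interval −0.04 to 2.18, edgeR adjusted p = 0.574). Without male replicate 1 the log2 fold change was 0.59. With the offset for GC content and length, Pdgfra was past the threshold at 1.22 (SE 0.19, edgeR adjusted p = 0.0141), in a fit that called 3.02% of all genes as higher in male.

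Pdgfrb (ENSMUSG00000024620), the beta receptor, stood at 205.7, 466.6 and 347 CPM in male replicates 1 to 3, against 417.5, 772.5 and 634.7 CPM in female replicates 1 to 3. The sexes overlapped because male replicate 2 was above female replicate 1. The means were 339.8 ± 130.6 CPM in male and 608 ± 179 CPM in female libraries (SD, n = 3 each), with a log2 fold change of −0.84 (SE 0.44, 95% interval −1.89 to 0.21, edgeR adjusted p = 0.764). With the offset for GC content and length it was −0.90 (SE 0.27, edgeR adjusted p = 0.126).

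Markers of pericytes and other mural cells, which also carry the beta receptor, were present in these sorted cells. All 7 listed genes were tested and none passed; 6 had a positive and 1 a negative log2 fold change, and the median was 0.60. With the offset for GC content and length 1 of the 7 passed, the channel gene Abcc9, at 0.98 (edgeR adjusted p = 0.0385). That fit called 3.02% of all genes as higher in male. Their summed level ranged from 523 to 1033 CPM in male and from 331 to 584.6 CPM in female libraries, with Notch3, a receptor gene active in mural cells, the most abundant. The 1 negative value was that of Cspg4, at −0.17 (SE 0.52), the same sign as that of Pdgfrb. The part of mural cells in the Pdgfrb values was not tested.
Smooth muscle genes were listed apart from these. Their summed level was 128 to 275 CPM in male and 27.6 to 50.4 CPM in female libraries, and Tagln, the most abundant of the 6 listed, averaged 96.9 ± 39.9 CPM in male and 18.6 ± 8.02 CPM in female libraries (SD, n = 3 each; edgeR adjusted p = 0.0892). None of the 6 passed. In 5 the male libraries lay above all female libraries, against 6.47% of all genes. Myh11 had the opposite order, against 7.27% of all genes. With the offset for GC content and length those 5 passed, where 3.02% of all genes were called as higher in male. Myh11 did not pass there (edgeR adjusted p = 0.0614). The part of such cells in the Pdgfrb and Pdgfra values was not tested.

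Within a library the balance of the receptors can be read without scaling between libraries. Per exon length, the level of Pdgfra was 3.48, 0.691 and 0.961 times that of Pdgfrb in male replicates 1 to 3, and 0.647, 0.197 and 0.362 times in female replicates 1 to 3. Every male library had a higher ratio than every female library, although male replicate 2 was close to female replicate 1. Pdgfra was the more abundant of the pair in 1 library, male replicate 1. On the log2 scale the male mean of the ratio was 1.88 above the female mean, a 3.68-fold difference of geometric means (exact two-sided permutation p = 0.1, the smallest that 3 against 3 libraries allow). Without male replicate 1 the difference was 1.18 on the log2 scale. The log2 count ratio also varied widely within a sex, at 2.67 and 0.34 in male replicates 1 and 2. In female replicates 1 and 2 it was 0.24 and −1.47. The genes differ in GC content (48.1% for Pdgfra, 54.9% for Pdgfrb), and the part of GC content in the ratio was not tested. The summed level of the receptors per length, in CPM per kilobase (RPKM), was 145.5 ± 22.05 in male and 150.7 ± 22.5 in female libraries (SD, n = 3 each), so the ranges overlapped. Pdgfra made up 77.7%, 40.9% and 49.0% of that sum in male replicates 1 to 3, against 39.3%, 16.5% and 26.6% in female replicates 1 to 3.

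**Figure D2:**
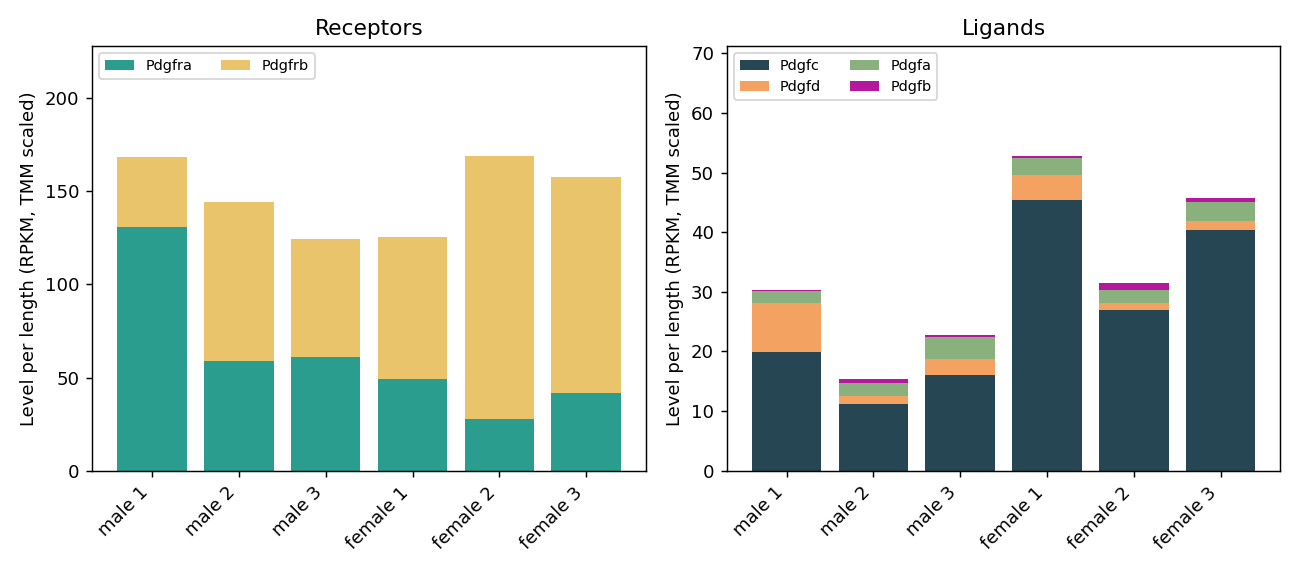
Stacked levels per exon length (RPKM, TMM scaled, axes from 0) of the receptors, left, and of the ligands, right, in each of the 3 male and 3 female libraries. The receptor sums overlap between the sexes, at 145.5 RPKM on average in male and 150.7 RPKM in female libraries, while the ligand sums are at most 30.3 RPKM in a male library and at least 31.4 RPKM in a female library.

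Among the ligands Pdgfc was by far the most abundant in both sexes, and it was the member with the largest absolute log2 fold change in this fit. Pdgfc (ENSMUSG00000028019), a ligand of the alpha receptor, stood at 101, 56.7 and 81.6 CPM in male replicates 1 to 3, against 230.9, 137.5 and 205.7 CPM in female replicates 1 to 3. The highest male library was below the lowest female library. The means were 79.8 ± 22.3 CPM in male and 191 ± 48.3 CPM in female libraries (SD, n = 3 each), with a log2 fold change of −1.26 (SE 0.38, 95% interval −2.16 to −0.37, edgeR adjusted p = 0.250 and unadjusted p = 0.0127). It did not pass with the offset for GC content and length, where it was −1.28 (SE 0.35, edgeR adjusted p = 0.0993), nor by DESeq2, where it was −1.24 (adjusted p = 0.0541).

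Pdgfd (ENSMUSG00000032006), a ligand of the beta receptor, stood at 26.1, 4.50 and 8.68 CPM in male replicates 1 to 3, against 13.2, 3.69 and 4.76 CPM in female replicates 1 to 3. The sexes overlapped, and replicate 1 was the highest in either sex. The log2 fold change was 0.86 (SE 0.78, 95% interval −1.01 to 2.73, edgeR adjusted p = 0.99997). It turned to −0.13 without male replicate 1.

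Pdgfa (ENSMUSG00000025856), a ligand of the alpha receptor, stood at 6.35, 6.57 and 11.3 CPM in male replicates 1 to 3, against 9.15, 6.64 and 9.76 CPM in female replicates 1 to 3. The female values lay inside the range of the male values. The log2 fold change was −0.08 (SE 0.39, 95% interval −0.99 to 0.84, edgeR adjusted p = 0.99997), so changes of nearly 2-fold in either direction lie within the interval. Pdgfa overlaps the span of the antisense gene 6330403L08Rik in the reference annotation, which held 95 to 133 counts in male and 102 to 140 in female libraries. Reads on any stretch that the genes share cannot be assigned by strand, because the library kit keeps no strand information. How far their exons overlap was not examined.

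Pdgfb (ENSMUSG00000000489), which binds both receptors and is made mainly by endothelium and megakaryocytes, was the least abundant member. It had 13, 56 and 44 counts in male replicates 1 to 3, against 34, 92 and 74 counts in female replicates 1 to 3, or 0.497, 2.77 and 1.85 CPM in male and 1.25, 4.52 and 2.96 CPM in female libraries. The sexes overlapped. The log2 fold change was −0.77 (SE 0.73, 95% interval −2.52 to 0.98, edgeR adjusted p = 0.99997).

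Of 8 endothelial markers 7 were tested and none passed, and their summed level was 147 to 330.5 CPM in male and 59.99 to 100.5 CPM in female libraries. Most of that sum was Kdr, the main VEGF receptor, at 207.6 ± 98.3 CPM in male and 66.2 ± 23.4 CPM in female libraries (SD, n = 3 each). With the offset Kdr passed at 1.77 (edgeR adjusted p = 0.0109) and Esam, an endothelial adhesion gene, at −1.82 (edgeR adjusted p = 0.00983). That fit called 5.94% of all genes in either direction. The defining endothelial genes Pecam1 and Cdh5 were low, at 1.14 ± 0.296 and 1.84 ± 0.588 CPM in male and at 1.499 ± 0.286 and 1.46 ± 0.356 CPM in female libraries. Of 6 megakaryocyte and platelet genes 3 were tested and none passed, with summed levels of 11.5 to 22.9 CPM in male and 10.1 to 16.6 CPM in female libraries, with the integrin gene Itgb3 the most abundant. The platelet gene Gp9 had at most 1 count in any library.

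**Figure D3:**
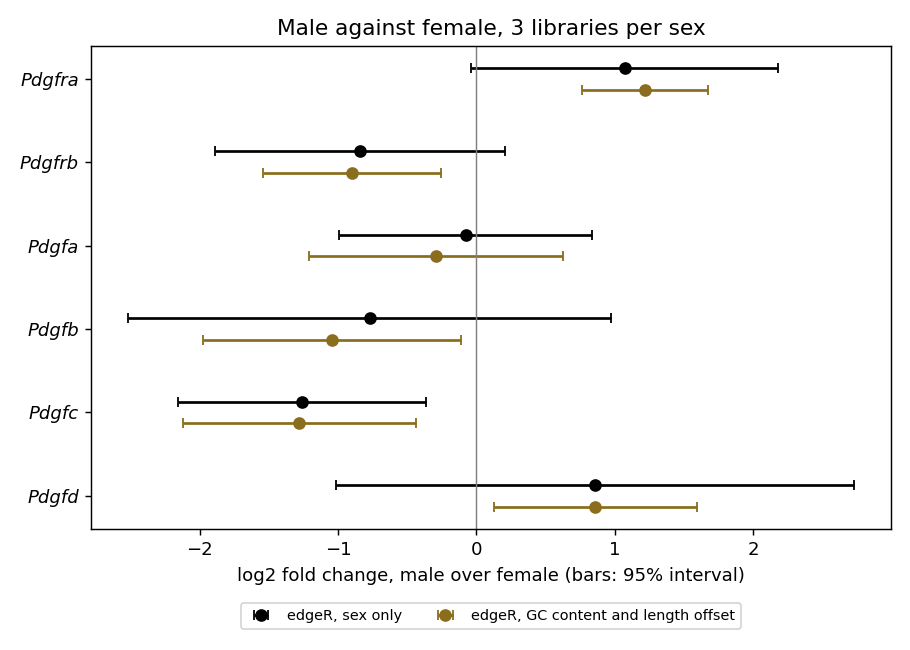
Log2 fold change of each member, male over female, with bars for the 95% interval that is not adjusted for the number of genes (3 libraries per sex). Black points are the edgeR fit with sex only, in which Pdgfc alone has an interval that excludes 0, and brown points are the fit with the offset for GC content and length, in which Pdgfa alone has an interval that includes 0.

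Per exon length, the members fell into the same broad order in either sex, with the receptors and Pdgfc above the other ligands. In male libraries the levels were 83.5 ± 40.9 RPKM for Pdgfra, 62.02 ± 23.8 for Pdgfrb, 15.7 ± 4.37 for Pdgfc, 4.15 ± 3.63 for Pdgfd, 2.59 ± 0.895 for Pdgfa and 0.410 ± 0.275 for Pdgfb (SD, n = 3). The male libraries of Pdgfra and Pdgfrb overlapped, as did those of Pdgfd and Pdgfa, and the other neighbours did not. In female libraries the levels were 111 ± 32.7 RPKM for Pdgfrb, 39.7 ± 10.9 for Pdgfra, 37.6 ± 9.49 for Pdgfc, 2.73 ± 0.531 for Pdgfa, 2.29 ± 1.65 for Pdgfd and 0.6996 ± 0.394 for Pdgfb (SD, n = 3). There Pdgfra and Pdgfc overlapped, as did Pdgfa and Pdgfd. Over all 6 libraries Pdgfrb, Pdgfra and Pdgfc were above 96.5%, 94.6% and 85.6% of 14674 tested genes per length, and Pdgfd, Pdgfa and Pdgfb above 38.01%, 34.2% and 13.7%.

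The ligand mix also differed between the libraries of the sexes. The summed ligand level was 30.3, 15.4 and 22.8 RPKM in male replicates 1 to 3, against 52.8, 31.4 and 45.8 RPKM in female replicates 1 to 3. Pdgfc made up 65.6%, 72.6% and 70.2% of it in male replicates 1 to 3, against 85.95%, 86.0% and 88.3% in female replicates 1 to 3. The sexes overlapped neither in the sum nor in the Pdgfc share. Pdgfd made up 27.3%, 9.29% and 12.0% in male replicates 1 to 3, against 7.92%, 3.72% and 3.30% in female replicates 1 to 3. These shares did not overlap either, although the level of Pdgfd itself did. The shares of Pdgfa and Pdgfb overlapped between the sexes. As parts of the same sum, which is mostly Pdgfc, the shares depend on one another. They are descriptions, with no test.

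Duct epithelium, a known source of PDGF ligands for neighbouring mesenchyme in several organs, left low levels of some of its defining genes. Of 8 listed markers 6 were tested and 1 fell, the adhesion gene Epcam, at 2.58 ± 0.477 CPM in male and 13.7 ± 3.08 CPM in female libraries (SD, n = 3 each; edgeR adjusted p = 0.0381). With the offset Epcam and the tight junction gene Cldn4 passed, Cldn4 at −3.14 (edgeR adjusted p = 0.0174). Over all genes 0.387% were called as lower in male without the offset and 2.92% with it. The summed level was 125 to 387 CPM in male and 172 to 586 CPM in female libraries, most of it the keratin gene Krt18. Krt8, another keratin gene, averaged 85.7 ± 47.8 CPM in male and 97.1 ± 71.7 CPM in female libraries (SD, n = 3 each). The duct regulators Pax2 and Lhx1 had at most 16 counts in any library, whereas Pax8, also listed, had 227 to 527 counts. The part of epithelial RNA in the Pdgfc and Pdgfa values was not tested. Mesothelium markers summed to 483 to 576.5 CPM in male and 533 to 706.9 CPM in female libraries, with Wt1 the most abundant on average and none of 5 tested genes called. Fetal Leydig cell markers summed to 2.42 to 6.999 CPM in male and 5.40 to 8.89 CPM in female libraries, with Star the most abundant on average and none of 2 called. Sertoli cell markers summed to 58.7 to 98.1 CPM in male and 11.1 to 17.1 CPM in female libraries. Of the 6 listed 3 rose, namely Sox9, Amh and Cst9, against 0.841% of all genes. With the offset Dhh joined them, where 3.02% of all genes were called as higher in male. Without the offset Cst8 had the opposite sign, at −2.19 (SE 0.89, edgeR adjusted p = 0.517), and Ptgds was at 0.21 (SE 0.67). For Cst8 and Ptgds the sexes overlapped.

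Replicates 1 and 2 differed in a like order of members in both sexes. Replicate 3 deviated from the mean of its sex to the same side in both sexes for every member but Pdgfra. For Pdgfra the deviation was −0.35 in male replicate 3 and 0.12 in female replicate 3 (log2 CPM). For Pdgfd, Pdgfra and Pdgfc the replicate 1 library was the highest in either sex, and for Pdgfrb and Pdgfb it was the lowest. From replicate 2 to replicate 1 the log2 CPM differed by 2.51 and 1.82 for Pdgfd in male and female libraries, by 1.15 and 0.83 for Pdgfra and by 0.83 and 0.75 for Pdgfc. The same difference was −0.05 and 0.46 for Pdgfa in male and female libraries, −1.18 and −0.89 for Pdgfrb and −2.29 and −1.79 for Pdgfb. That order is the order of transcript GC content, at 39.9% for Pdgfd, 48.1% for Pdgfra, 50.7% for Pdgfc, 52.1% for Pdgfa, 54.9% for Pdgfrb and 60.0% for Pdgfb. With the offset for GC content and length the standard error of the log2 fold change was 0.19 for Pdgfra, 0.27 for Pdgfrb, 0.39 for Pdgfb and 0.31 for Pdgfd, against 0.46, 0.44, 0.73 and 0.78 without it. For Pdgfc it was 0.35 with and 0.38 without the offset, and for Pdgfa 0.39 in both fits.

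**Figure D4:**
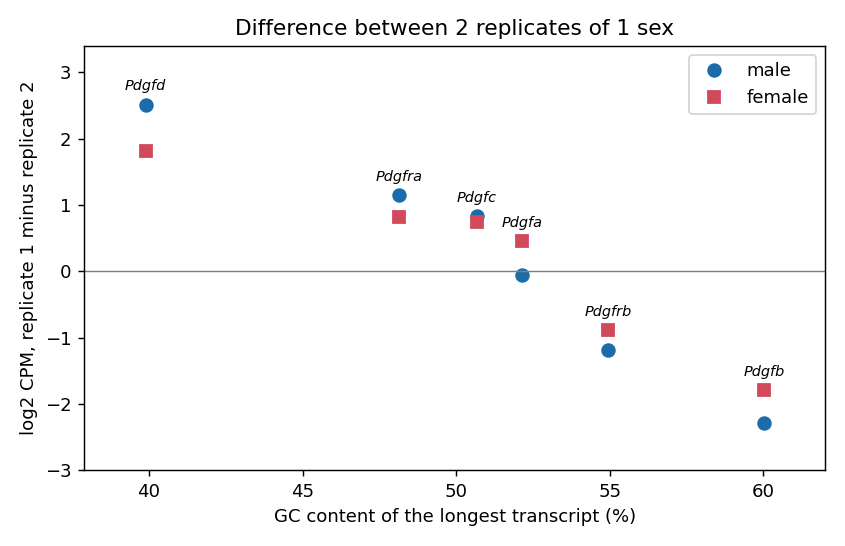
Difference in log2 CPM between replicate 1 and replicate 2 of the same sex, for each member, against the GC content of its longest reference transcript in percent; blue circles are male and red squares female libraries. The difference falls from 2.51 (male) and 1.82 (female) for Pdgfd, at 39.9% GC, to −2.29 and −1.79 for Pdgfb, at 60.0% GC.

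Other genes of the pathway were taken from a list of 38, all of which were tested. None passed, against 1.23% of all genes, and 1 had an unadjusted p under 0.05, against 9.18% of all genes. By DESeq2 1 passed, against 5.06% of all genes. In 2 of the 38, or 5.26%, the sexes did not overlap, against 13.7% of all genes. The median log2 fold change of the list was −0.12, with 15 positive and 23 negative values.

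Among 6 genes that activate PDGF ligands, 2 were higher and 4 lower in male by the sign of the log2 fold change, whose median was −0.32. Furin, a convertase that cuts growth factor precursors including PDGF-A and PDGF-B, stood at 157.7, 388.99 and 331 CPM in male replicates 1 to 3, against 55.7, 115 and 99.3 CPM in female replicates 1 to 3. The lowest male library was above the highest female library. The log2 fold change of Furin was 1.70 (SE 0.48, edgeR adjusted p = 0.219). It passed by DESeq2 at 1.74 (adjusted p = 0.0205) and with the offset for GC content and length at 1.64 (edgeR adjusted p = 0.0274). Furin cuts precursors of many other secreted proteins as well.
The log2 fold changes of Plat and Plau, which encode the plasminogen activators that release PDGF-C and PDGF-D, were −0.42 (SE 0.34) and 0.04 (SE 0.50), and neither passed.

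Among 4 co-receptor and binding protein genes none passed, and the median log2 fold change was 0.18. The smallest p was that of Pdgfrl, which encodes a secreted protein similar to the extracellular part of the receptors, at 30.5 ± 10.04 CPM in male and 17.5 ± 6.87 CPM in female libraries (SD, n = 3 each; edgeR adjusted p = 0.807). Among 21 signal transducers, adaptors and kinases that dock on the activated receptors, none passed, and the median was −0.12 with 8 positive and 13 negative values. Stat5a, a transcription factor activated by receptor and cytokine signals, had the smallest p, at 3.34 ± 1.07 CPM in male and 6.77 ± 2.67 CPM in female libraries (SD, n = 3 each). Its log2 fold change was −1.02 (SE 0.47, edgeR adjusted p = 0.634), and with the offset for GC content and length it passed at −1.15 (edgeR adjusted p = 0.0342), where 2.92% of all genes were called as lower in male. The docking protein gene Gab1, the other member of the 38 beside Furin without overlap between the sexes, differed by −0.66 on the log2 scale (SE 0.32, edgeR adjusted p = 0.679) and was named after its values were seen. Among 7 attenuators of the signal none passed, and the median was −0.12. Socs3, an inhibitor of STAT signalling, had the smallest p among them at 0.57 on the log2 scale (SE 0.65, edgeR adjusted p = 0.99997).

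**Figure D5:**
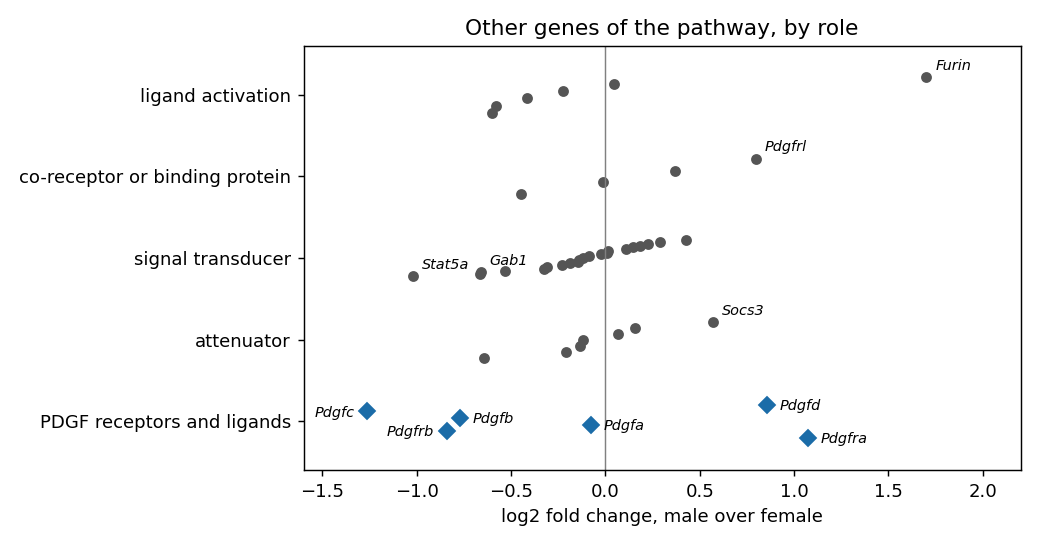
Log2 fold change, male over female, of the 38 other pathway genes by role (grey circles, 1 per gene) and of the 6 receptors and ligands (blue diamonds). Furin at 1.70 and Stat5a at −1.02 are the ends of the list of 38, and Pdgfra at 1.07 and Pdgfc at −1.26 those of the 6 members; vertical position within a row only separates the points.

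The genes whose log2 CPM followed each member most closely over the 6 libraries were picked among those of at least 10 CPM off the sex chromosomes, by Pearson correlation, as a description. They were Slc6a6 (0.997) and Pcdh9 (0.987) for Pdgfra, Ncapd2 (0.996) and Etv5 (0.996) for Pdgfrb, and Sept3 (0.997) and Prdm1 (0.997) for Pdgfc. For Pdgfd they were Pros1 (0.998) and Cd1d1 (0.990), for Pdgfb Dhx32 (0.999) and Cnot9 (0.997), and for Pdgfa Spef1 (0.958) and Cc2d1b (0.924). The number of genes with a correlation above 0.95 was 53 for Pdgfra, 169 for Pdgfrb, 139 for Pdgfc, 85 for Pdgfd, 322 for Pdgfb and 1 for Pdgfa, of about 9600 compared. The 6 points share the difference between replicates 1 and 2 given above.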

How the data were processed

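The authors deposited raw counts per Ensembl gene for each of 6 libraries, made per the labels' protocols with the TruSeq v2 kit from at least 100 ng of RNA and read as paired 76-base reads. The submitters' processing notes name TopHat, HTSeq, DESeq and mm9. No annotation release or strand setting is given in the sources used here. The 5 summary lines, which name no gene, were left out; counts outside genes are given in the report, and ambiguous counts made up 6.51% to 10.0% of uniquely placed counts. Of 37991 identifiers, 32919 had a symbol, exon length and GC content (GENCODE M21, GRCm38). That annotation also gave the chromosomes and the gene spans used to find genes that overlap a member.

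Genes were kept by filterByExpr (edgeR 4.0.16, R 4.3.3), scaled by TMM and tested by the two-sided robust quasi-likelihood test, modelling sex alone. P-values were adjusted by Benjamini-Hochberg across all tested genes, with a threshold of 0.05. Standard errors were derived from log2 fold change and F statistic. RPKM is TMM-scaled CPM per kilobase of merged exons. The GC and length offset used splines with 5 degrees of freedom fitted to the deviations of each library; 96.4% of tested genes had a value. DESeq2 1.42.0 and limma-voom (limma 3.58.1) were alternatives. The labels call replicates biological. To look for libraries deposited more than once, replicates of a sex were compared; no pair agreed within sampling noise (chi-square per degree of freedom of at least 77.4), which does not tell technical from biological differences.

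Members and lists were chosen with earlier results of these data known. By rule, the genes named were the members, list genes past the threshold or else the smallest p per list, and the most abundant marker per cell type. The 2 closest genes by correlation were named by rule too, and list genes past the threshold with the offset were added. Named outside these rules were Pecam1, Cdh5, Gp9, Pax2, Lhx1, Pax8, Krt8, Cspg4, Myh11, Cst8, Ptgds, Plat, Plau, Gab1, Csf1r and Flt3. Of the markers and related genes listed, Muc16 and Flt3l were not matched and not used here.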

Additional observations from a re-analysis of the deposited data

Results flagged for a closer look

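Counts outside annotated genes entered no comparison. Their share of uniquely placed counts lay between 3.53% and 18.2% over the 6 libraries, lowest in female replicate 2 and highest in male replicate 1. There are no control libraries for such a signal, so it stands out only against the limit set by no counts at all.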

How the results depend on the processing

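Under other scalings (DESeq2 size factors, upper quartile), other filters, DESeq2 and limma-voom, all 6 members kept their direction and stayed short of the threshold. With the GC content and length offset Pdgfra passed, at 1.22. By the data the replicate numbers paired the samples only in part. Deviations of same-numbered male and female libraries correlated over genes at 0.93 and 0.85 for replicates 1 and 2, but at −0.07 for replicate 3. Male replicate 3 went best with female replicate 2 (0.59). With a replicate block all the same, Pdgfra (1.01), Pdgfrb (−0.87), Pdgfb (−0.85), Pdgfc (−1.27) and Pdgfd (0.74) passed, in a fit that called 4164 genes, or 27.3% of all, and 8 of the pathway list. With the offset and the replicate block they were 1.22, −0.91, −1.07, −1.28 and 0.87, and all 5 passed, among 4418 genes called, or 29.0%, and 7 of the pathway list. For Pdgfa neither fit passed. The receptor ratio gave 1.88 with a replicate block (exact sign-flip p = 0.25, the smallest possible).

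Genes called numbered 187 in all, 771 by DESeq2 (444 higher, 327 lower) and 905 with the offset; the pathway list had 1 and 2 of them, against 0. Leaving out single libraries, or, as an alternative chosen after the data were seen, both libraries of a replicate number, gave log2 fold changes of 0.59 to 1.27 for Pdgfra, −1.14 to −0.58 for Pdgfrb, −0.38 to 0.12 for Pdgfa, −1.31 to −0.30 for Pdgfb, −1.47 to −1.07 for Pdgfc and −0.13 to 1.63 for Pdgfd, none past the threshold. The sign of Pdgfa turned to 0.069, 0.052 and 0.036 without male replicate 1, male replicate 2 or female replicate 3 and to 0.12 without replicate 1 of both sexes, and that of Pdgfd in 1 of these 9 fits, and the receptor ratio ranged from 1.18 to 2.35. Genes called ranged from 0 to 354, and those of the pathway list from 0 to 1. The count was 173, 7 and 0 without male replicate 1, 2 or 3, 14, 5 and 0 without female replicate 1, 2 or 3, 354 without replicate 1 of both sexes, and 0 without replicate 2 or 3 of both. Where edgeR called 0, an unadjusted p under 0.05 was found for 938 (male 3), 884 (female 3), 1103 (both 2) and 455 (both 3) genes. The cause of these changes was not tested. Pdgfb rests on 13 to 92 counts per library, which limits its precision.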

Other observations

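Receptors of the same structural class as the PDGF receptors, and their ligands, were also measured. Kit, the stem cell factor receptor, stood at 28.8, 14.8 and 17.1 CPM in male replicates 1 to 3, against 15.9, 7.72 and 12.9 CPM in female replicates 1 to 3, a log2 difference of 0.73 (SE 0.43, edgeR adjusted p = 0.879). Csf1r and Flt3, receptors typical of macrophages and blood progenitors, had log2 fold changes of −0.05 and 0.27 and means of at most 1.45 CPM in either sex. Of the 3 ligand genes tested, Csf1, the ligand of Csf1r, stood at 40.5, 46.6 and 50.8 CPM in male replicates 1 to 3, against 21.4, 28.9 and 28.5 CPM in female replicates 1 to 3. Every male library was above every female library for Csf1, which held for 6.47% of all genes tested. The log2 difference of Csf1 was 0.81 (SE 0.31, edgeR adjusted p = 0.447). None of these 6 genes passed.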
